A study of Homo sapiens with 2 samples.

Results

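Transcripts of the nuclear lamina and of the inner nuclear membrane were read on 2 expression arrays of HCC15 cells, a human lung cancer line in long use that the labels call squamous. The set held 10 genes, namely the lamin genes LMNB1, LMNB2 and LMNA, the lamin B receptor gene LBR, the genes EMD, TMPO and LEMD3 of the LEM-domain proteins, their DNA-binding partner BANF1, and the SUN-domain genes SUN1 and SUN2. Members were taken as every probe set that GEO's platform annotation pairs with exactly 1 of these symbols, which gave 22 of the 54675 probe sets on the array. The set was chosen by measured values of these same arrays together with family membership, since LMNB1 was already known to be among the genes with the largest ratios. The ratios below are therefore a description and carry no test.

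The series asked for Wnt target genes in lung cancer with a mutated CTNNB1, the gene of beta-catenin. In the control group HCC15 cells received a control siRNA whose target the labels do not give (its title carries the word Tax), and in the other group they received an siRNA against CTNNB1. Cells of both groups were grown in RPMI medium with serum and, by the treatment text, collected 48 h after transfection. Each group was 1 array of 1 cell line, so no spread between cultures could be measured and no p-value was possible. The signals were MAS5 intensities, which summarise the probes of a probe set into 1 linear value, and every ratio is CTNNB1 siRNA over control siRNA.

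As background, lamins are intermediate filament proteins that form a meshwork under the inner nuclear membrane. B-type lamins (LMNB1, LMNB2) keep a farnesyl anchor and stay at the membrane, whereas LMNA is spliced into lamin A and lamin C, the main A-type lamins. LBR and the LEM-domain proteins tie chromatin to the membrane and the lamina, and SUN proteins span the inner membrane and bind nesprins of the outer membrane, linking the nucleus to the cytoskeleton. The meshwork is taken apart when cells enter mitosis and is rebuilt at its end, and loss of lamin B1 is widely used as a marker of senescent cells.

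The brightest CTNNB1 probe set went from 1224 on the control array to 338.7 after the knockdown, 27.7% of its control signal, and the other CTNNB1 probe sets stood at 51.0% and 91.3%. A probe set entered the gene-level comparison when the mean of its 2 signals reached 49.1, the median of all values, and a gene was represented by its brightest entering probe set, which gave 12531 genes. The median log2 ratio of these genes was 0.15, and it ran from -0.24 among the dimmest of 10 equal signal classes to 0.27 among the brightest. The pooled SD of log2 ratios between probe sets of the same gene was 0.42, or 0.29 over probe sets with a mean signal of at least 209. It serves here as a yardstick and is not the error of a single ratio, since it compares different probe sets. Differences between cultures are not covered by it. Of the labelled lineage's markers, 1 of 8 squamous genes entered (SOX2, 60.1 with control siRNA), while KRT5, KRT14, KRT15, DSG3 and PKP1 stayed under the filter and TP63 and KRT6A were not analysed here. Of 6 lung adenocarcinoma markers 3 entered, SFTPB (164.9 with control siRNA), SFTPC (107.3) and NAPSA (56.2), and of 5 neuroendocrine markers NCAM1 (67.6). Entry alone is common, as 12531 of the 19775 genes with a probe set of 1 gene symbol passed the filter. All 5 epithelial markers entered, with control signals from 532.9 to 11116.2. Of 5 leukocyte and 6 fibroblast markers, 1 and 3 entered, with control signals of at most 67.1 and 162.5.

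All 10 members entered, through 19 of the 22 probe sets. LMNB1 was the only member at least 2-fold higher with CTNNB1 siRNA, and none was at least 2-fold lower. Across all genes 2.29% were at least 2-fold higher (287 of 12531) and 2.38% at least 2-fold lower (298). These shares depended on scaling, with 472 genes higher and 183 lower when both arrays were set to a common median and 163 and 448 after centring on the median ratio. Because LMNB1 was chosen on this ratio, nothing is read from the count of 1 in 10. The median log2 ratio of the 10 members was 0.20, or 0.13 without LMNB1, beside 0.15 for all genes. Of the members, 5 lay above the median of all genes and 5 below it.

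**Figure D1:**
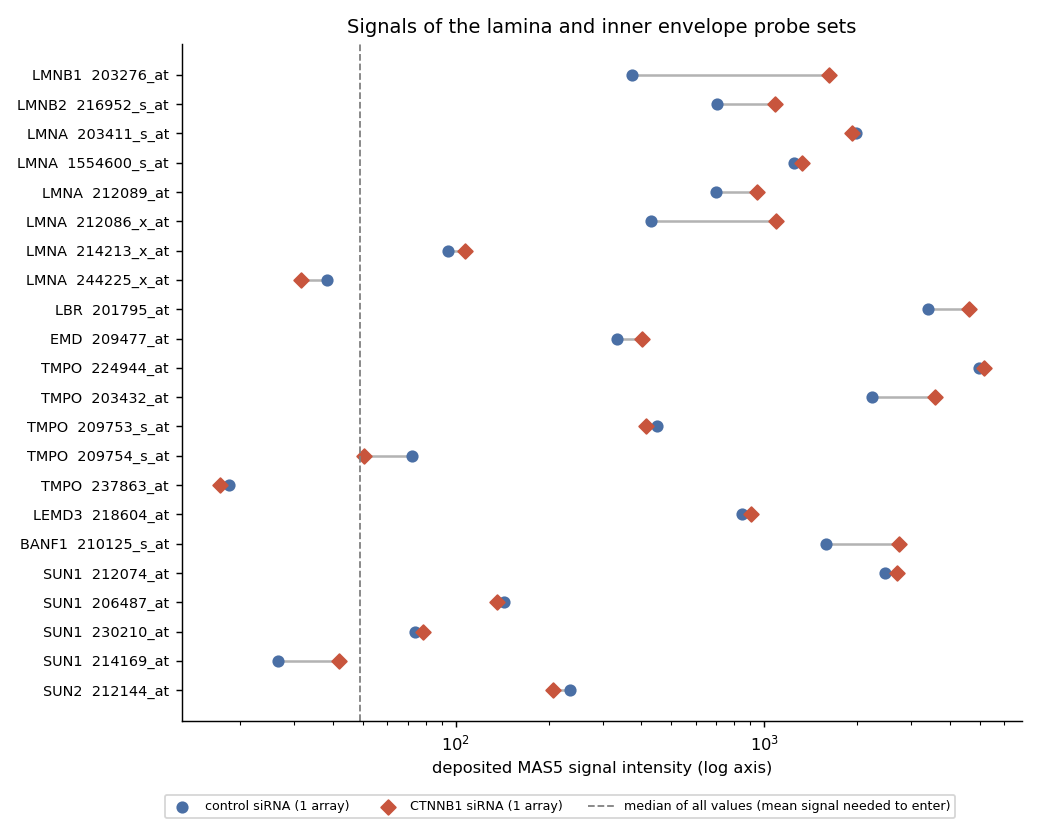
Deposited MAS5 signal (log axis) of the 22 probe sets of the 10 genes, with 1 control siRNA array (circles) and 1 CTNNB1 siRNA array (diamonds) joined by a line; the dashed line is the median of all values, 49.1. The LMNB1 probe set spans the longest line, from 371.6 to 1619.5, and the LMNA probe set 212086_x_at the next longest, from 428.7 to 1088.5.

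LMNB1 encodes lamin B1. Its probe set, 203276_at, had a signal of 371.6 in control cells and 1619.5 in CTNNB1 siRNA cells, a 4.36-fold higher value and a log2 ratio of 2.12. This ratio was the 17th highest of the 12531 genes. It lay 1.87 above the median of the 1252 genes of similar signal, of which 2 had a ratio at least as high, LMNB1 included. The gene had 1 probe set under its symbol, so no second reading of the transcript was at hand. In RNA from a whole culture, more cells with a transcript and more RNA per cell cannot be told apart. Its log2 ratio stayed between 1.88 (loess) and 2.26 (common median) in the 10 alternative settings. Several of these could not alter it, because the gene had 1 bright plain _at probe set. They were the changes of filter, the floor at the median, the median over probe sets and the plain _at rule. Centring and a common median only shift all such genes alike.

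LMNB2, the gene of the other B-type lamin, was read by 1 probe set (216952_s_at). Its signal was 703.5 with control siRNA and 1084.9 with CTNNB1 siRNA, a log2 ratio of 0.62. That value stood 0.37 above the median of genes of similar signal. This was more than the SD of 0.29 between bright probe sets and less than the SD of 0.42 between all entering ones. Of the 1252 genes of similar signal, 140 had a ratio at least as high, LMNB2 included. The log2 ratio of LMNB1 exceeded that of LMNB2 by 1.50, and by 1.46 to 1.52 in the 9 alternatives that gave both. That narrow range was largely fixed in advance. Centring and a common median cancel in the difference. The filters, the floor at the median and the median over probe sets cannot alter bright genes with 1 probe set each. Each side of that difference is a single probe set on a single pair of arrays.

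Windows before the start sites of the members were read from RefSeq promoter sequences of GRCh38.p14, which listed 15 windows for 9 of the 10 genes, all but SUN1. The 250 bases before each start were searched on both strands for the TCF/LEF core (CTTTGAA or CTTTGAT), the element bound by the DNA partners of beta-catenin, and for 3 motifs common before cell cycle genes. These were the CHR (TTTGAA or TTCGAA, the former contained in the first TCF/LEF spelling), the CCAAT box (CCAAT) and an E2F motif (TTTCCCGC, TTTGGCGC or TTTGGCGG). The windows below are shown because LMNB1 had the largest ratio while LMNB2 and LBR were the members whose windows held a TCF/LEF core. Matches are in capitals, on the given strand except for the CCAAT box of LMNB1, which is on the other strand.
LMNB1: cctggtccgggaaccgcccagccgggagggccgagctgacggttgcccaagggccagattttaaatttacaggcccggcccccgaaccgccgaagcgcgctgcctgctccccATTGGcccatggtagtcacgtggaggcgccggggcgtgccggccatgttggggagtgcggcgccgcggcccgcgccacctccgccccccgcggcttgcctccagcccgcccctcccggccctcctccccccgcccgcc
LMNB2: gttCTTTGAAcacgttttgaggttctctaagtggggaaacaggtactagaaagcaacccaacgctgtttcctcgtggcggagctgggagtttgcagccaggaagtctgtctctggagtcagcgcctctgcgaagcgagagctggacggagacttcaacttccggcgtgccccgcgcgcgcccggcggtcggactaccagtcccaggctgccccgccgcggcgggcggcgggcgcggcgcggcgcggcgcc
LBR: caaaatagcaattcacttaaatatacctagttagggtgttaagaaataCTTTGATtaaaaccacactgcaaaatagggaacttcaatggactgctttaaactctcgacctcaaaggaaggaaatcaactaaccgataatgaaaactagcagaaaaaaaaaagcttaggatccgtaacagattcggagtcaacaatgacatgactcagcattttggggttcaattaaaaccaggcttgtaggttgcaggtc

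The LMNB1 window lies at chr5:126776886-126777135 (plus strand), downstream of the other listed start of that gene. The LMNB2 window is chr19:2456960-2457209 (minus strand), and the LBR window is chr1:225428822-225429071 (minus strand). Neither of the 2 LMNB1 windows held a TCF/LEF, CHR or E2F match in the spellings searched. The window shown held 1 CCAAT box, 134 to 138 bases before the start. In LMNB2 the TCF/LEF match lay 241 to 247 bases before the start and contained the CHR match. In LBR it lay 196 to 202 bases before the start. Of all 35116 RefSeq windows, 5.94% held a TCF/LEF core, beside 2 of the 15 member windows. A match is a description of letters and not a binding site. The absence of these letters from 250 bases says nothing of other spellings, bases after the start or more distant elements.

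CCAAT boxes stood in 7 of the 15 member windows, in LMNB1, LMNA, EMD, TMPO, LEMD3 and SUN2, beside 32.0% of all windows. Both TMPO windows, whose starts are close neighbours and share most bases, held the same pair of boxes within 64 bases of the start. CHR letters occurred in 2 member windows (LMNB2 and SUN2) beside 14.3% of all, and E2F letters in 2 (LMNA and LEMD3) beside 2.44%. BANF1, with the highest log2 ratio after LMNB1, had no match in its window. The 2 genes with an E2F match had log2 ratios of -0.04 and 0.09, and the 2 with a TCF/LEF match 0.62 and 0.44. LMNB1, at 2.12, had a CCAAT box as its only match. A link between motifs and ratios was not tested.

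**Figure D2:**
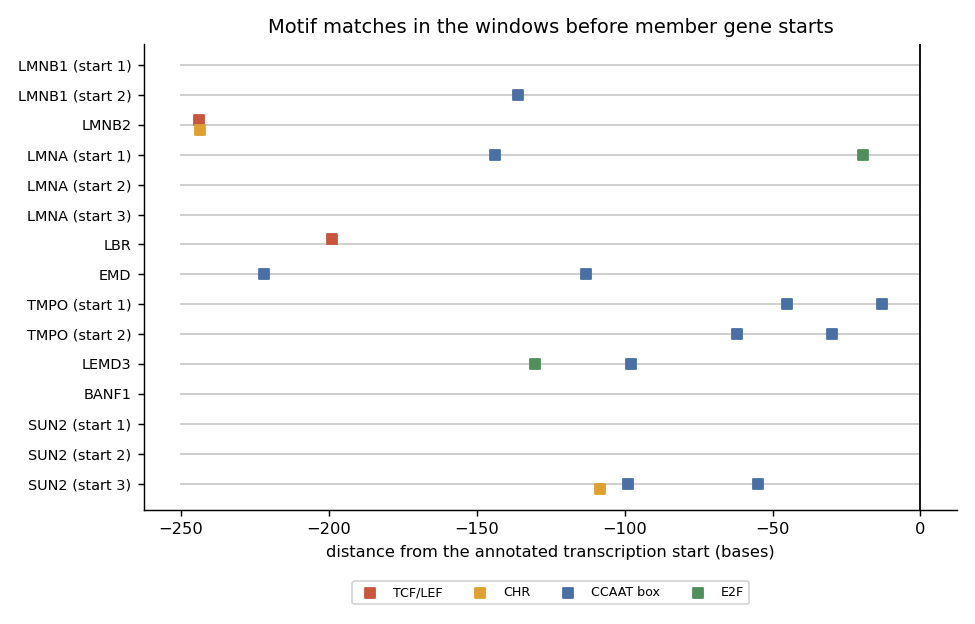
Positions of motif matches in the 250 bases before each annotated start (x axis, bases from the start; 1 line per window, several starts of a gene in coordinate order; squares coloured by motif). LMNB1 shows 1 CCAAT box at its second start and no TCF/LEF, CHR or E2F match, and TCF/LEF squares appear for LMNB2 and LBR only.

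LMNA gave different answers by probe set. The brightest, 203411_s_at, annotated with a lamin C entry, read 1977.9 and 1919.7 on the control and CTNNB1 siRNA arrays. The probe set 212089_at, annotated with a lamin A entry, read 695.2 and 945.8, and 1554600_s_at read 1248.3 and 1326.9. The probe set 212086_x_at read 428.7 and 1088.5, a 2.54-fold higher value, and 214213_x_at read 94.5 and 106.9. The 5 entering LMNA log2 ratios thus ran from -0.04 to 1.34 with a median of 0.18, and only 212086_x_at passed 2-fold.

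With LMNB1, it made 2 of the 19 entering member probe sets at least 2-fold higher and 0 lower, beside 3.42% and 2.21% of the 22468 entering single-symbol probe sets. Since LMNB1 was chosen on its ratio, nothing is read from this count either. The name ending _x_at marks probe sets whose probes can pair with other transcripts, and the part of this in its value was not tested. Among the 244 genes with 5 entering probe sets, 15.98% had a range at least as wide as the 1.39 of LMNA, and the median range was 0.90. The sign of the LMNA gene value depended on the setting. Its log2 ratio was -0.04 as deposited, -0.32 after loess and 0.09 with a common median, and 0.44 when only plain _at probe sets were used.

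LBR, a multispanning membrane protein that binds B-type lamins and heterochromatin and is also a sterol reductase, was among the brighter members. Its probe set (201795_at) read 3402.7 with control siRNA and 4611.5 with CTNNB1 siRNA, a log2 ratio of 0.44. That stood 0.17 above the median of genes of similar signal, less than the SD between probe sets. The LBR value stayed above 0 in all 10 alternatives, from 0.16 to 0.57.

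**Figure D3:**
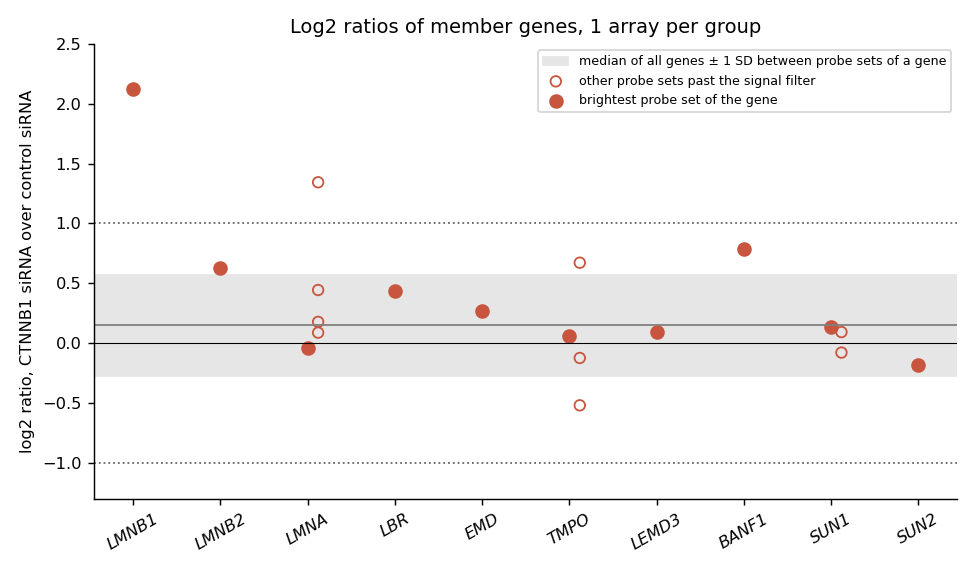
Log2 ratio (y axis) of each member gene, with the brightest probe set filled and its other entering probe sets open; the grey band is the median of all genes, 0.15, ± 1 SD between probe sets of a gene, 0.42, and dotted lines mark 2-fold. LMNB1 at 2.12 and 1 LMNA probe set at 1.34 lie beyond 2-fold, and LMNB2, BANF1 and 2 TMPO probe sets lie between the band and those lines.

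Among the LEM-domain genes, EMD, which encodes emerin, read 332.8 and 401.1 on the control and CTNNB1 siRNA arrays, a log2 ratio of 0.27. LEMD3, whose product MAN1 binds SMAD proteins and dampens BMP and TGF-beta signalling, read 848.3 and 903.8, a ratio of 0.09 on the log2 scale. Both differences from the median of genes of similar signal, 0.13 and -0.16, were smaller than the SD between probe sets. The sign for LEMD3 turned under quantile normalization (-0.16), loess (-0.16) and centring (-0.06), whereas EMD stayed above 0 in all 10 alternatives.

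TMPO encodes the LAP2 proteins, a family of splice forms of which some span the inner membrane and LAP2 alpha lies within the nucleus. Its brightest probe set, 224944_at, read 4952.1 and 5163.0 on the control and CTNNB1 siRNA arrays. The probe set 203432_at read 2236.4 and 3564.1, 1.59-fold higher. Dimmer ones went the other way, 209753_s_at from 449.5 to 412.6 and 209754_s_at from 72.1 to 50.3. The 4 entering log2 ratios therefore spanned -0.52 to 0.67, a range reached by 16.2% of the 605 genes with 4 entering probe sets. Which splice form each probe set reads is not stated in the labels or the annotation. The gene value was 0.06 as deposited, and it was below 0 under quantile normalization (-0.21), loess (-0.20), centring (-0.09) and the median over probe sets (-0.03).

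BANF1, the barrier-to-autointegration factor, bridges DNA and LEM-domain proteins and gathers chromatin when the envelope is rebuilt. Its single probe set (210125_s_at) read 1583.5 with control siRNA and 2724.4 with CTNNB1 siRNA, 1.72-fold higher. The log2 ratio of 0.78 was the highest of the members after LMNB1 and stood 0.50 above the median of genes of similar signal, where 63 of 1254 genes, BANF1 included, were at least as high. It ranged from 0.50 to 0.92 in the 9 alternatives that gave a value, always short of 2-fold.

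The SUN-domain genes differed little between the arrays. SUN1 had a bright probe set (212074_at) with 2460.0 on the control and 2697.4 on the CTNNB1 siRNA array. Its dimmer probe sets read 143.2 and 135.6 (206487_at) and 73.7 and 78.6 (230210_at). The 3 log2 ratios lay within 0.21 of each other, and 88.3% of the 1525 genes with 3 entering probe sets had a range at least as wide. SUN1 had a log2 ratio of 0.13, which turned to -0.15 under quantile normalization, -0.14 under loess and -0.02 after centring. SUN2 read 234.4 and 206.4 (212144_at), the lowest log2 ratio of the set at -0.18, and it was below 0 in all 10 alternatives, from -0.34 to -0.05.

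Probe sets under the filter were 244225_x_at of LMNA (38.3 and 31.5), 237863_at of TMPO (18.4 and 17.2) and 214169_at of SUN1 (26.5 and 41.8). At such signals the arrays give no firm direction.

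**Figure D4:**
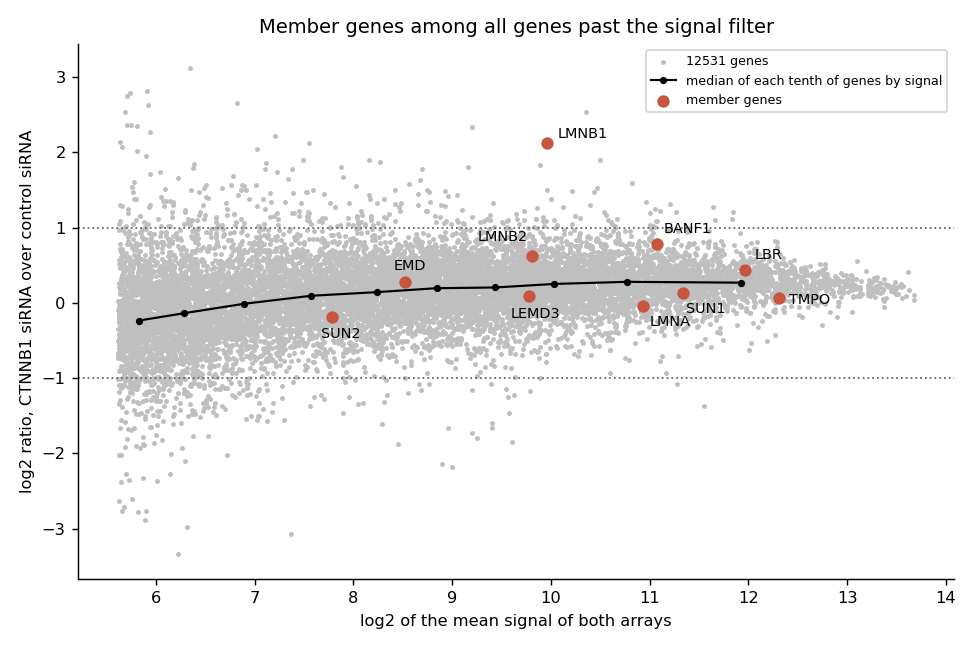
Log2 ratio against the log2 mean signal of both arrays for 12531 genes (grey), with the 10 member genes (red, named) and the median of each of 10 equal signal classes (black line); dotted lines mark 2-fold. LMNB1 stands apart from the genes of its signal, while the other 9 members lie within 2-fold.

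The genes with the pair of signals closest to that of LMNB1, by distance in log2 signal over the 2 arrays, were ADA (415.1 and 1481.2), PTGES (384.3 and 2227.5), MFGE8 (520.2 and 1475.4), HSP90B1 (566.8 and 1475.0) and CLDN1 (548.0 and 1314.2). None of them is a member of the set or on the lists of related genes below. Each had 2 entering probe sets, which for MFGE8 disagreed most, with log2 ratios of 0.11 and 1.50. The pairs were 1.54 and 1.84 for ADA, 1.97 and 2.54 for PTGES, and 1.26 and 1.34 for CLDN1. For HSP90B1 they were 0.97, short of 2-fold, and 1.38 (216449_x_at), the latter with the _x_at ending described above. With 2 arrays this likeness says only that both signals were close to those of the LMNB1 probe set.

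Other genes of the envelope were taken by fixed lists. Of 6 lamin processing genes 5 entered, with log2 ratios from -0.09 to 0.44 and a median of 0.43, and none was past 2-fold. This median was 0.16 after quantile normalization and after loess, 0.20 when each gene took its probe sets' median ratio and 0.21 when only plain _at probe sets were read. ZMPSTE24, the protease that matures prelamin A, read 2328.8 in control cells and 3164.2 in CTNNB1 siRNA cells. ICMT, the methyltransferase of farnesylated proteins, read 1618.0 and 2188.3, although a second ICMT probe set (201611_s_at) read 495.9 and 481.3. RCE1, the CaaX endopeptidase gene, read 179.6 and 241.4.

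Of 14 further inner membrane genes 13 entered, and TMEM201 was the only one past 2-fold by its brightest probe set. TOR1AIP2, at 0.14 by that measure, had 6 entering probe sets with log2 ratios from -0.32 to 1.15. TMEM201, also known as SAMP1, a membrane protein tied to SUN complexes, read 223.9 with control siRNA and 631.9 with CTNNB1 siRNA (227617_at), a log2 ratio of 1.50. Its second probe set (228671_at) read 251.0 and 313.9, 0.32 as a log2 ratio, and the median of the pair, 0.91, fell short of 2-fold. TMEM43, a membrane protein that binds emerin, had a log2 ratio of 0.72 and LEMD2, a LEM-domain gene, of 0.70. A dimmer TMEM43 probe set (233480_at) read 144.0 and 107.2. The median of this list was 0.29 as deposited, 0.07 after quantile normalization and after loess, and 0.11 with plain _at probe sets.

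The list of nesprins and other SUN-domain genes had 4 of 8 genes past the filter, with none past 2-fold. SYNE2, which encodes the giant outer membrane protein nesprin-2, read 287.0 with control siRNA and 385.1 with CTNNB1 siRNA. SYNE3 had a log2 ratio of -0.26 and SUN5 of 0.43, and the 2 entering SUN5 probe sets disagreed (-0.82 and 0.43).

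Among 18 genes for regulators and partners of BAF and the lamins, 16 entered and none passed 2-fold by its brightest probe set. CDK1 and CCNB1 on this list are also on the G2/M list below. The 2 entering AKAP8L probe sets had log2 ratios of 0.52 (the brightest) and 2.62, and the 6 of CBX5 ran from -0.51 to 1.09. PPP2R2A, a regulatory subunit of protein phosphatase 2A, had a log2 ratio of 0.82, the histone deacetylase gene HDAC3 0.65 and the protein kinase C gene PRKCA 0.63. The other entering PPP2R2A probe sets read 617.5 and 718.0 (228013_at) and 315.3 and 437.0 (236492_at), log2 ratios of 0.22 and 0.47. A dimmer PRKCA probe set (215195_at) went from 77.4 to 236.0. The list's median was 0.26 as deposited and 0.02 after quantile normalization and after loess.

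All 31 nuclear pore genes entered. By brightest probe set their log2 ratios ran from -0.35 to 0.88, with a median of 0.27 and none past 2-fold. The largest of these were in NUP98 (0.88), NUP54 (0.78) and NUP188 (0.72). NUP58, at -0.35 by its brightest probe set, had another entering probe set at 2.10. Other entering probe sets also passed 2-fold in NUP62 (1.25) and NUP50 (1.17), and in the lower direction in NUP210 (-1.38). The 3 entering NUP98 probe sets had log2 ratios from 0.50 to 0.88. Cytoplasmic intermediate filament genes, relatives of the lamins, had a median of 0.15 over 10 entering genes and none past 2-fold. Within that list the keratin genes KRT80 (0.48), KRT7 (0.37) and KRT19 (0.26) had the largest ratios. A dim KRT7 probe set (214031_s_at) read 87.2 and 71.1, a log2 ratio of -0.29, and another (1558393_at) read 92.4 and 114.0. The medians of the nuclear pore and filament lists had no fixed sign, at -0.0029 and -0.01 after quantile normalization and 0.02 and -0.05 after loess. None of these lists was tested, and all genes had a median of 0.15.

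Since lamina genes include ones whose transcripts vary over the cell cycle, G2/M genes are given beside them. All 26 entered. By brightest probe set all their log2 ratios were above 0, from 0.17 to 0.94, with a median of 0.48, led by AURKB (0.94), CENPE (0.90) and BUB1 (0.84). The median of their signal classes' own medians was 0.27, and 23 of the 26 genes lay above that of their class. After loess 23 of the 26 genes were above 0 and their median was 0.21. Other entering probe sets lay below 0 in AURKA (-0.38), CDK1 (-0.38) and BIRC5 (-0.04), and past 2-fold in TOP2A (1.28) and NUSAP1 (1.14). By brightest probe set, LMNB1 at 2.12 was above every gene on this list, and BANF1, LMNB2, LBR and EMD were within its range. TMPO, LMNA, SUN1, SUN2 and LEMD3 were below its lowest by that measure. Other entering probe sets of LMNA had log2 ratios of 1.34, above that range, 0.44 and 0.18, within it, and 0.09, below it. Those of TMPO were 0.67, within the range, and -0.12 and -0.52, below it. The part of a shift in cell cycle phase in the LMNB1 value was not tested.

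**Figure D5:**
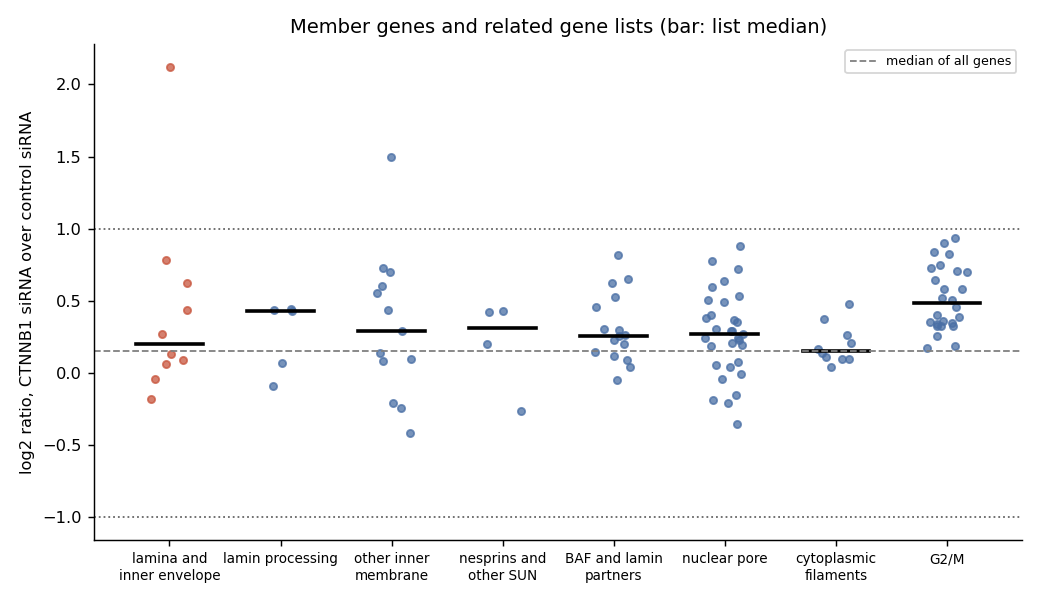
Log2 ratio (y axis) of each entering gene in the lamina and inner envelope set (red) and in 7 related lists (blue), with the list median as a bar; the dashed line is the median of all genes, 0.15, and dotted lines mark 2-fold. LMNB1 (2.12) and TMEM201 (1.50) are the only points past 2-fold, and the G2/M list has the highest median, 0.48.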

How the data were processed

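The authors deposited 1 linear signal intensity per probe set and array, made with MAS5 per the submitters' processing notes, on biotin-labelled Affymetrix arrays. What MAS5 version, target intensity, scaling or detection call was used is not given in the sources used here. Per the labels the molecule was total RNA, while their treatment text speaks of tRNA. The medians of the deposited intensities were 51.3 (control siRNA) and 46.7 (CTNNB1 siRNA).

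Of the 54675 probe sets, 41097 had 1 gene symbol, 1801 had several and 11777 were not listed in the platform annotation. Symbols were updated by Entrez number to RefSeq (41043 matched). Values under 13.8, the 25th percentile, were set to that floor, and no member value lay under it. No further normalization was applied before log2 ratios were taken. The 5 gene-level results, every member and the list medians were recomputed in 10 alternative settings, those for the lists and TMEM201 being added after the data were seen. The number of arrays limits the precision. The calculations were tested on simulated arrays (Python 3.11.15, pandas 2.3.3, statsmodels 0.14.6 for loess with a span of 0.4).

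Members, lists, motifs and rules were chosen with earlier results of these data known. Genes named were all members, CTNNB1, marker genes, the 5 genes nearest to LMNB1 in both log2 signals, and in each list every gene past 2-fold and the 3 with the largest absolute log2 ratio. Further list genes are named for another entering probe set past 2-fold or, among the G2/M genes, below 0. CDK1 and CCNB1 are also named as shared by the lists of BAF and lamin partners and of G2/M genes. Probe sequences were not used here.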

Additional observations from a re-analysis of the deposited data

How the results depend on the processing

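In all 10 alternatives LMNB1 was the only member at least 2-fold higher and no member was at least 2-fold lower. LMNB1 had 1 bright plain _at probe set. Apart from shifts common to all genes, only quantile normalization, loess and the pseudocount could change its value. The median log2 ratio of the members ran from -0.04 (quantile normalization) to 0.34 (scaling to a common median) and was below 0 in 2 alternatives. With plain _at probe sets only, LMNB2 and BANF1 had no value, and LMNA moved to 0.44, because another probe set represented it. TMEM201 kept at least 2-fold in every alternative except the median over probe sets (0.91).

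Counts of all genes at least 2-fold higher and lower were 287 and 298 as deposited, 472 and 183 with a common median, 163 and 448 after centring, 245 and 160 with the floor at the median, 217 and 155 with a pseudocount of 16, 721 and 1271 with no filter, and 139 and 34 with the filter at the 75th percentile. Related genes passed 2-fold in some alternatives only: SYNE4, KASH5, PRKCB and BANF2, all dim, without the filter, NUP98, AURKB and CENPE with a common median, and PRKCA and AKAP8L with the median over probe sets. SYNE4, KASH5, PRKCB and BANF2 are named here because of these values. With 1 array per group, none of these settings measures differences between cultures.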

Other observations

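Some transcripts lie close to the members without being part of them. TMPO-AS1, an antisense RNA gene beside TMPO, read 108.0 in control cells and 154.3 in CTNNB1 siRNA cells (227578_at), a log2 ratio of 0.51. The genes LMNTD1 and LMNTD2, which carry a lamin tail domain, read 60.3 and 45.1 (1552865_a_at) and 119.3 and 127.2 (236050_at). All 3 were picked with their values in view, each has 1 entering probe set, and none passed 2-fold.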
